A study of Mus musculus with 12 samples.

Results

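The genes described here are the 6 peroxiredoxins Prdx1, Prdx2, Prdx3, Prdx4, Prdx5 and Prdx6, the glutathione peroxidases Gpx1 and Gpx4, and the superoxide dismutases Sod1 and Sod2. They were chosen by symbol and make up 10 of the 55291 genes in the deposited table. All 10 were well above the filter on low values and were tested. Expression was measured by RNA sequencing in 5 female and 7 male wild-type (WT) embryos of the C57BL/6J mouse strain at embryonic day 7.0 (E7.0), the time of gastrulation. The embryos came from 7 litters and no embryo or mother had been treated, so sex was the only contrast, in a series whose title concerns alcohol-induced craniofacial malformation. Each library was 1 embryo, and the sources used here do not say whether extraembryonic tissue was trimmed. C57BL/6J mice are known to carry a deletion in Nnt, a mitochondrial enzyme that supplies NADPH.

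Superoxide dismutases turn superoxide into hydrogen peroxide, and peroxiredoxins and glutathione peroxidases then reduce that peroxide or lipid peroxides. Peroxiredoxins are recharged mainly by thioredoxin and thioredoxin reductase, glutathione peroxidases by glutathione, and both chains draw on NADPH. Prdx1, Prdx2 and Prdx6 act largely in the cytosol, Prdx3 in mitochondria, Prdx4 in the endoplasmic reticulum, and Prdx5 in mitochondria, peroxisomes and cytosol. Sod1 is the copper and zinc enzyme of the cytosol, and Sod2 the manganese enzyme of mitochondria. Gpx4 reduces lipid peroxides in membranes, and mouse embryos that lack it are known to die around gastrulation. Ethanol is known to raise oxidants in embryos.

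By an estimate from the value of 1 fragment, depth ran from 85.4 to 97.5 M fragments in female libraries and from 83.0 to 114 M in male libraries. Normalized counts of Xist ran from 109 to 561 in females and from 0 to 38.6 in males, and the Y-linked Ddx3y did not exceed 83.2 in females and was at least 3492 in males, so each library matched its labelled sex. Markers of the epiblast were abundant in every embryo, with the 9 of 9 tested genes summing to between 453092 and 518454 normalized counts in females and between 352885 and 544878 in males. Visceral endoderm, parietal endoderm, trophoblast, decidual and adult globin genes were detected beside them. In such whole-embryo libraries, fewer cells of a type and less RNA per cell cannot be told apart.

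Gpx1 and Gpx4 are selenoproteins, in which a TGA codon inside the reading frame is read as selenocysteine, the residue that reacts with peroxide. The 63 bases around that codon are shown because it is the feature that ties this pair to the supply of selenium. In the GENCODE M21 transcripts of GRCm38, a single in-frame TGA was found at codon 47 of the 201-codon Gpx1 form and at codon 73 of the 197-codon Gpx4 form, counted from the start codon, and no complete coding transcript of the other 8 genes held an in-frame stop. Capitals mark the TGA.
Gpx1: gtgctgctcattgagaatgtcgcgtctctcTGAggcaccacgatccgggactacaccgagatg
Gpx4: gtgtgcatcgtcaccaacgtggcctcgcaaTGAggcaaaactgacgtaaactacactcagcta

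Promoters of 3 of the genes follow, from RefSeq on GRCm38.p6, each from 250 bases before to 50 after the annotated start. Prdx1 and Sod1 are shown as the 2 members, of 9 with a promoter entry, whose window held the letters TGACNNNGC of the antioxidant response element, through which the factor NRF2 acts, and Prdx2 as the near relative of Prdx1 that also had an unadjusted p below 0.05 for sex without passing the adjusted test. Both strands were searched, and capitals mark that element, the Sp1 box GGGCGG, the CCAAT box and the TATA box TATAAA, with overlapping matches run together. Of 32817 promoters of this length, 12.4% held TGACNNNGC, 35.6% GGGCGG, 37.4% CCAAT and 13.6% TATAAA. The windows are chr4:116685349-116685648 on the plus strand for Prdx1, chr8:84969372-84969671 on the plus strand for Prdx2 and chr16:90220512-90220811 on the plus strand for Sod1.
Prdx1: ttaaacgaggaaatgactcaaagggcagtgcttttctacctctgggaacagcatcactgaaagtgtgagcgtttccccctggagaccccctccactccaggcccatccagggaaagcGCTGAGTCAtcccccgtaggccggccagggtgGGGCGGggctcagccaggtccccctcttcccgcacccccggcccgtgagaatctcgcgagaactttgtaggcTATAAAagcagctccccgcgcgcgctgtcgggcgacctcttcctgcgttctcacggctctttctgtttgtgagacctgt
Prdx2: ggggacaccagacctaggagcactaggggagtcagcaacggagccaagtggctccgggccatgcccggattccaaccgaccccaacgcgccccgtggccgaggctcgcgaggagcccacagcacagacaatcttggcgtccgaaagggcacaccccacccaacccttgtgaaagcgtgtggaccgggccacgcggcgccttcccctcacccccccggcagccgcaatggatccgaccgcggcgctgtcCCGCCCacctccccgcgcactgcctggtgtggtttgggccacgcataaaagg
Sod1: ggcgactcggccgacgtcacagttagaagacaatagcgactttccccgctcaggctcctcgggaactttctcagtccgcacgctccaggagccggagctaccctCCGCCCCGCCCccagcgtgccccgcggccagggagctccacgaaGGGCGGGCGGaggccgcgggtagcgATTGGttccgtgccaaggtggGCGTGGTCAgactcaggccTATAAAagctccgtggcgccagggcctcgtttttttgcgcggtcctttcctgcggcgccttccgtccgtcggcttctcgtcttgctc
The antioxidant response element of Prdx1 began at position -133 from the start and that of Sod1 at -56, both on the minus strand. A TATA box lay at -29 in Prdx1 and at -37 in Sod1. These matches are letters found in a window and were not measured as bound sites.

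Per kilobase of the longest annotated coding transcript, Prdx1 stood first and Sod2 last, 77.8-fold apart. Prdx1 averaged 93105 ± 19355 normalized counts per kilobase (SD, n = 12 embryos), Gpx1 70588 ± 3737, Prdx6 46907 ± 2941 and Prdx2 46492 ± 2481. The endoplasmic reticulum enzyme Prdx4 followed at 24121 ± 2460 per kilobase, then Gpx4 at 16102 ± 2166 and Sod1 at 15709 ± 1182. The lowest were Prdx5 at 8238 ± 667, the mitochondrial Prdx3 at 6286 ± 576 and the mitochondrial Sod2 at 1197 ± 107 per kilobase. Prdx6 lay above Prdx2 in 8 of 12 embryos and Gpx4 above Sod1 in 8 of 12, so neither of these neighbours differed beyond its spread. Prdx1 lay above Gpx1 in 11 of 12 embryos, and each of the other neighbours kept its order in all 12. Prdx1 alone held 41.0% of the per-kilobase sum of the 6 peroxiredoxins, between 34.4% and 48.4% by embryo. This share and the 77.8-fold span depend on the length used and were not taken with other lengths.

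**Figure D1:**
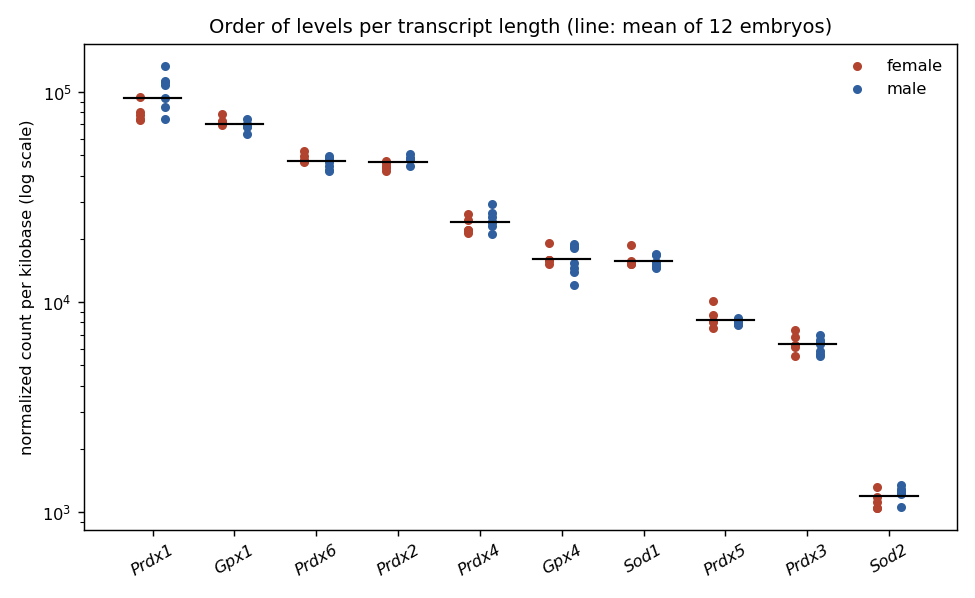
Normalized counts per kilobase of the longest coding transcript, on a log scale, for each of the 10 genes in order of their mean (line). Points are the 5 female and 7 male embryos, and the spans of Prdx6 and Prdx2 and of Gpx4 and Sod1 overlap.

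The middle of this order rests on the length used. With coding length, Gpx1 came after Prdx6 and Prdx2, and Sod1 came before Gpx4. With the merged exons of each gene, Prdx2 came before Prdx6, and Prdx3, Prdx5 and Sod1 followed Gpx4 in that order. Prdx1 stood first, Prdx4 in the middle and Sod2 last under every length tried. Sod2 had the longest of these transcripts, 5861 bases with a coding part of 666.

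None of the 10 genes passed the test for a difference between female and male embryos (limma, Benjamini-Hochberg adjusted over 16455 genes, threshold 0.05), against 0.0425% of all genes tested (0.0182% higher and 0.0243% lower in females). Log2 fold changes ran from -0.34 to 0.08, with 6 positive and 4 negative and a median of 0.04. Over all genes 49.8% were positive and the median was 0.00. At an unadjusted p below 0.05 there were 2 of the 10, Prdx1 and Prdx2, both lower in females, against 10.8% of all genes (5.13% higher and 5.64% lower in females). In the authors' deposited table none of the 10 had an adjusted p below 0.05, against 1.14% of genes, and the same 2 had an unadjusted one, against 8.44%. The values of females and males overlapped for all 10, while 0.772% of all genes tested showed no overlap.

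**Figure D2:**
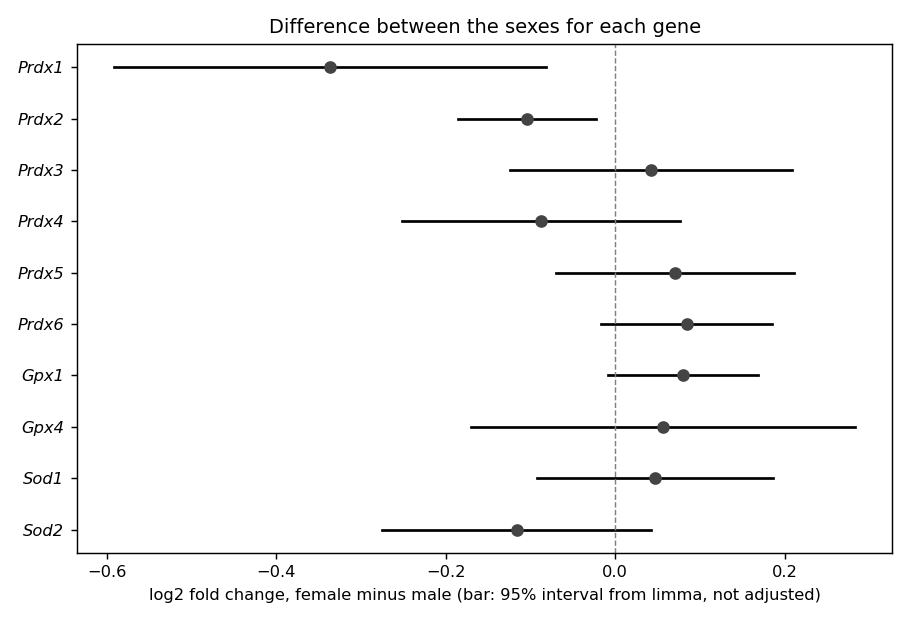
Log2 fold change of female minus male for each of the 10 genes (point) with its unadjusted 95% interval from limma (bar). The intervals of Prdx1 and Prdx2 lie below 0, and those of the other 8 genes include it.

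Prdx1, the most abundant of the set and a cytosolic peroxidase and chaperone, had the widest difference. It was at 218034, 169871, 184611, 168988 and 177275 normalized counts in female embryos, against 169656, 248851 and 304651 in male embryos (lowest, median and highest). The highest female lay above 3 of the 7 males, and male replicates 2, 5, 6 and 7 lay above every female. Prdx1 averaged 183756 ± 20178 in the 5 females and 234888 ± 45516 in the 7 males (SD), a log2 fold change of -0.34 (SE 0.12, adjusted p = 0.346 by limma). Its 95% interval, as a change in females, reached from -33.7% to -5.49%. The log2 fold change in the authors' deposited table was -0.13, and since the sources used here do not say whether it was shrunken toward 0, the sizes are not compared.

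Prdx2, the near relative that is best known from red blood cells, varied far less. It was at 71311, 75926, 70015.5, 73716.5 and 68060.1 normalized counts in female embryos, against 71389.5, 77370.2 and 81517 in male embryos (lowest, median and highest). All but 1 of the males, replicate 4, lay above every female. Means were 71806 ± 3086 in the 5 females and 77187 ± 2984 in the 7 males (SD), which is -0.10 on the log2 scale with an SE of 0.04 (limma adjusted p = 0.359). Prdx6 was at 111062, 124567, 113390, 117959 and 111728 in female embryos, against 100226, 110362 and 117681 in male embryos, so the highest value was a female one and the lowest a male one. This enzyme, which has a single reactive cysteine and also acts as a phospholipase, averaged 115741 ± 5620.2 in the 5 females and 109273 ± 6995 in the 7 males (SD). The log2 difference was 0.08 with an SE of 0.05 (limma adjusted p = 0.548).

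Levels of visceral endoderm markers also differed in range between the sexes. The 15 of 15 tested markers summed to between 421215 and 589476 normalized counts in females and between 221265 and 501684 in males, led by the apolipoproteins Apoe and Apoa1. Their mean log2 level relative to the 12 embryos lay between 0.21 and 0.68 in females and between -0.86 and 0.39 in males. The 3 male embryos lowest on that list, replicates 2, 5 and 6, were 3 of the 4 with the most Prdx1. Together the 10 genes took 0.550% ± 0.020 of all normalized counts in the 5 females and 0.603% ± 0.0542 in the 7 males (SD). This share is weighted by level, and Prdx1, the most abundant, averaged 183756 in females and 234888 in males. Of the 10 genes 6 had a positive log2 fold change, so the share does not describe the set as a whole. The part of the visceral endoderm in the Prdx1 and Prdx2 values was not tested.

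With all embryos and no litter block, the organelle peroxiredoxins differed little between the sexes. Prdx4, which is X-linked and draws on oxidants of protein folding in the endoplasmic reticulum, was at 24444.8, 25905, 21049.5, 21768 and 21889 normalized counts in female embryos, against 20882, 23825 and 29115 in male embryos (lowest, median and highest). The male range spanned the whole female range. The log2 difference was -0.09 with an SE of 0.08 (limma adjusted p = 0.728). Prdx3, of the mitochondria, was at 10065, 8193, 9209.8, 8998 and 10825 in female embryos, against 8187, 9366 and 10268.6 in male embryos, and the 2 ranges lay nearly on each other. It averaged 9458 ± 1014 in the 5 females and 9171 ± 777 in the 7 males (SD), which is 0.04 on the log2 scale with an SE of 0.08. Prdx5 was at 10896.6, 12814, 9530.6, 10122 and 10265.7 in female embryos, against 9826, 10244 and 10568 in male embryos. It averaged 10726 ± 1264 in the 5 females and 10160.4 ± 277 in the 7 males (SD), which is 0.07 on the log2 scale with an SE of 0.07. Female replicate 2 held the highest Prdx5 of all embryos, and the females spread over a range that included every male.

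**Figure D3:**
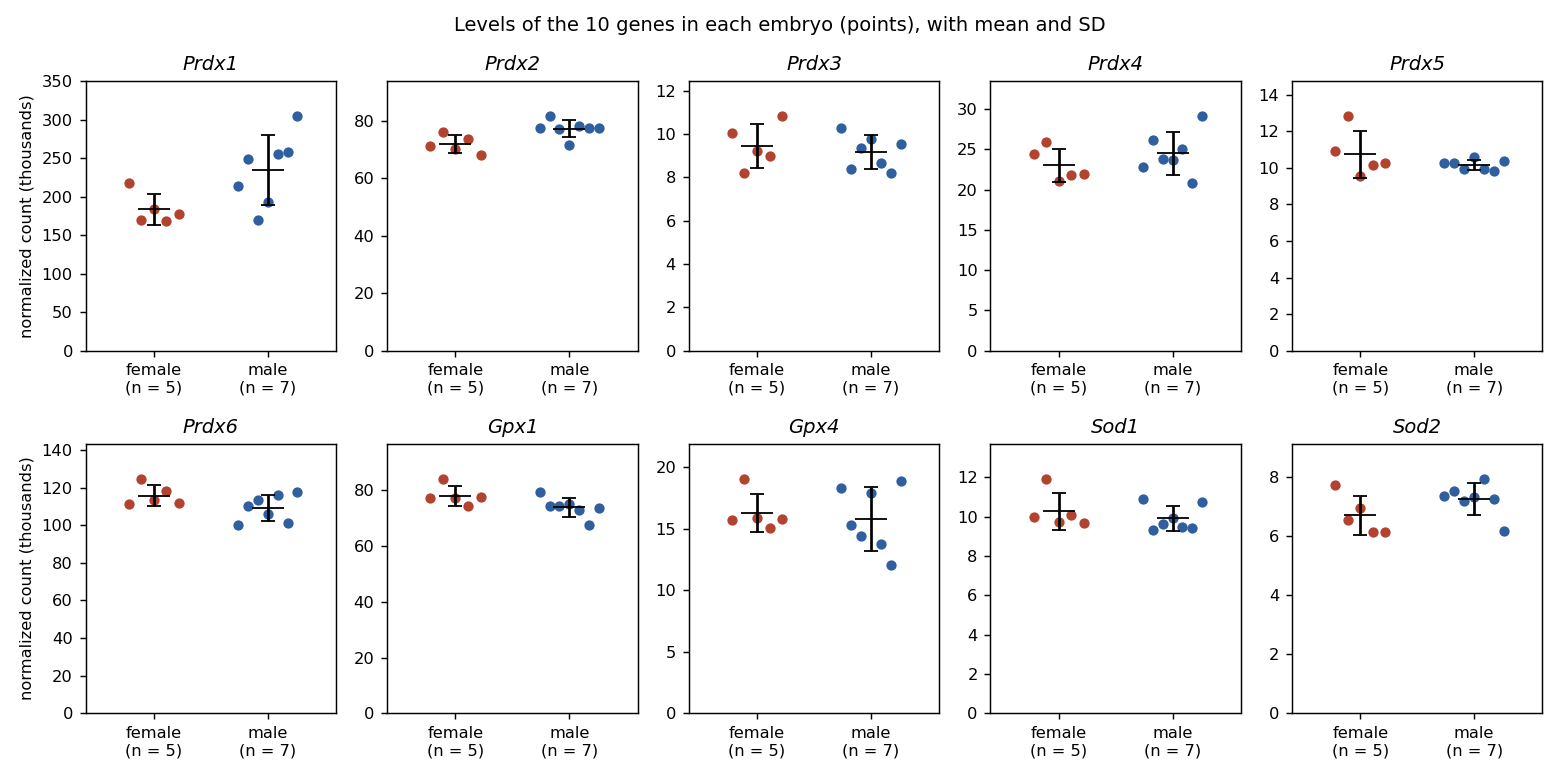
Normalized counts, on axes from 0 in units of 1e3, of each of the 10 genes in the 5 female and 7 male embryos (points), with the mean and SD. Female and male points overlap for every gene; Prdx1 reaches 304651 in male replicate 7, and Gpx4 and Sod1 are highest in female replicate 2.

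Gpx1, which reduces peroxide in cytosol and mitochondria, was at 77348, 84094, 77273, 74328 and 77598 normalized counts in female embryos, against 67521, 74341 and 79356 in male embryos (lowest, median and highest). It averaged 78128 ± 3593 in the 5 females and 73915 ± 3491 in the 7 males (SD), a log2 fold change of 0.08 (SE 0.04, adjusted p = 0.510 by limma). Gpx4 was at 15723, 19067, 15849.5, 15104 and 15801 in female embryos, against 12027, 15345 and 18859.7 in male embryos. The female with the most, replicate 2, stood alone above the other females, while males were spread over the whole range. The log2 fold change of Gpx4 was 0.06 (SE 0.11), with a 95% interval from -11.1% to 21.7% as a change in females. The mitochondrial, cytosolic and nuclear forms of Gpx4 are joined in 1 value per gene.

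Sod1 was at 9969.8, 11921, 9709, 10072 and 9674 normalized counts in female embryos, against 9347, 9636 and 10880.3 in male embryos (lowest, median and highest). The log2 difference was 0.05 with an SE of 0.07 (limma adjusted p = 0.856). Sod2 was at 7716, 6527, 6929, 6146 and 6147 in female embryos, against 6175, 7319.8 and 7928 in male embryos. The lowest Sod2 of the males, in replicate 7, was close to the 2 lowest females, and the other 6 males lay at 7179 or above. The log2 difference was -0.12 with an SE of 0.07 (limma adjusted p = 0.612).

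Both sexes were present in 3 litters, which let females be set against males of the same litter. Prdx2 and Prdx4 were lower in the female in 3 of 3 litters, and Prdx3 and Gpx1 were higher in 3 of 3. The other genes differed in direction between litters. The share of all genes with the same direction in 3 of 3 litters was not taken, so these counts are description only. For Prdx2 the within-litter log2 difference, female minus male, was -0.15 in litter 3, -0.15 in litter 6 and -0.18 in litter 9. For Prdx3 it was 0.18, 0.13 and 0.18 in the same litters. For Prdx1 it was 0.09, -0.48 and -0.78 in the same litters, so its direction was not shared by all of them. Each of these differences rests on 1 female and 1 or 2 males.

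Ratios inside a library do not depend on how that library was scaled. The log2 ratio of Prdx3 to Prdx1, the mitochondrial to the cytosolic enzyme, was -4.28 ± 0.16 in the 5 females and -4.66 ± 0.35 in the 7 males (SD). It ranged from -4.44 to -4.03 in females and from -4.99 to -4.18 in males, with 4 males below every female. The ratio of Sod2 to Sod1 was -0.62 ± 0.20 in the 5 females and -0.46 ± 0.18 in the 7 males (SD), and the ratio of Gpx4 to Gpx1 was -2.26 ± 0.07 in the 5 females and -2.24 ± 0.19 in the 7 males (SD).

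Embryos differed most in Prdx1 and Gpx4. The SD of the log2 level over 12 embryos was 0.29 for Prdx1, above that of 95.3% of the 86 genes within 2-fold of its level, whose median was 0.09. For Gpx4 it was 0.20, above 89.0% of the 2145 genes near its level. Gpx1, Prdx2 and Sod1 lay lower, with SDs of 0.08, 0.08 and 0.10, each above less of the genes near its level (28.4%, 29.5% and 26.3%). Highest over lowest embryo was 1.80-fold for Prdx1, 1.59-fold for Gpx4 and 1.25-fold for Gpx1. Embryos of 1 litter were no closer for Prdx1, where the mean absolute log2 difference was 0.41 over 7 same-litter pairs and 0.33 over 59 other pairs. For Sod1 it was 0.06 over same-litter pairs and 0.12 over the others, and for Sod2 0.09 and 0.16. Most same-litter pairs set a female against a male, so sex and litter are not separated in these differences.

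Whether the 10 genes vary together was asked over all 12 embryos, and the highest correlations lay among Gpx1, Gpx4, Sod1 and Prdx5. Over 45 pairs, 0 passed at an adjusted p of 0.05 by Pearson's r or Spearman's rho, and 7 and 4 had an unadjusted permutation p below 0.05. The 6 pairs among Gpx1, Gpx4, Sod1 and Prdx5 had r from 0.58 to 0.78. Without female replicate 2 and male replicate 6 the same pairs had r from 0.14 to 0.80, and with litter means subtracted, over the 8 embryos of litters with more than 1, from -0.01 to 0.65. The pairs near 0 within litters were Prdx5 with Gpx1 (r = -0.01), Prdx5 with Gpx4 (r = 0.03) and Gpx1 with Sod1 (r = 0.04). Gpx4 and Sod1 had r = 0.78 (permutation p = 0.0021, adjusted over the 45 pairs 0.0945) and rho = 0.78 (permutation p = 0.0035, adjusted 0.158). Among all genes tested, 0.529% had an r with Gpx4 at least as high. Without female replicate 2 and male replicate 6, the embryos farthest from the median, r was 0.80, and it was 0.82 among the 7 males. With litter means subtracted it was 0.65. The 4 embryos with the most Gpx4, at 17914.6 to 19067, stood apart from the other 8 at 12027 to 15849.5, and r was 0.48 within those 8.

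Some of the other pairs leaned more on 1 or 2 embryos. Prdx5 and Gpx4 had r = 0.58 (permutation p = 0.0467, adjusted 0.300), and between 0.50 and 0.63 when 1 embryo was left out. Their r was 0.42 without female replicate 2 and male replicate 6. Gpx1 and Gpx4 had r = 0.75 (permutation p = 0.00547, adjusted 0.123) and rho = 0.66 (permutation p = 0.0213), and r was 0.35 without female replicate 2 and male replicate 6. Prdx5 and Sod1 had r = 0.78 (permutation p = 0.0104, adjusted 0.156) and rho = 0.65 (permutation p = 0.0258), which became r = 0.39 without female replicate 2 alone. Prdx2 and Prdx3 ran in opposite directions, with r = -0.61 (permutation p = 0.0384, adjusted 0.288) and rho = -0.43. Prdx1 had r = 0.53 with Prdx2, 0.48 with Prdx4 and -0.54 with Gpx1, none below an unadjusted p of 0.05. All of these values share the library, its depth and its scaling.

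**Figure D4:**
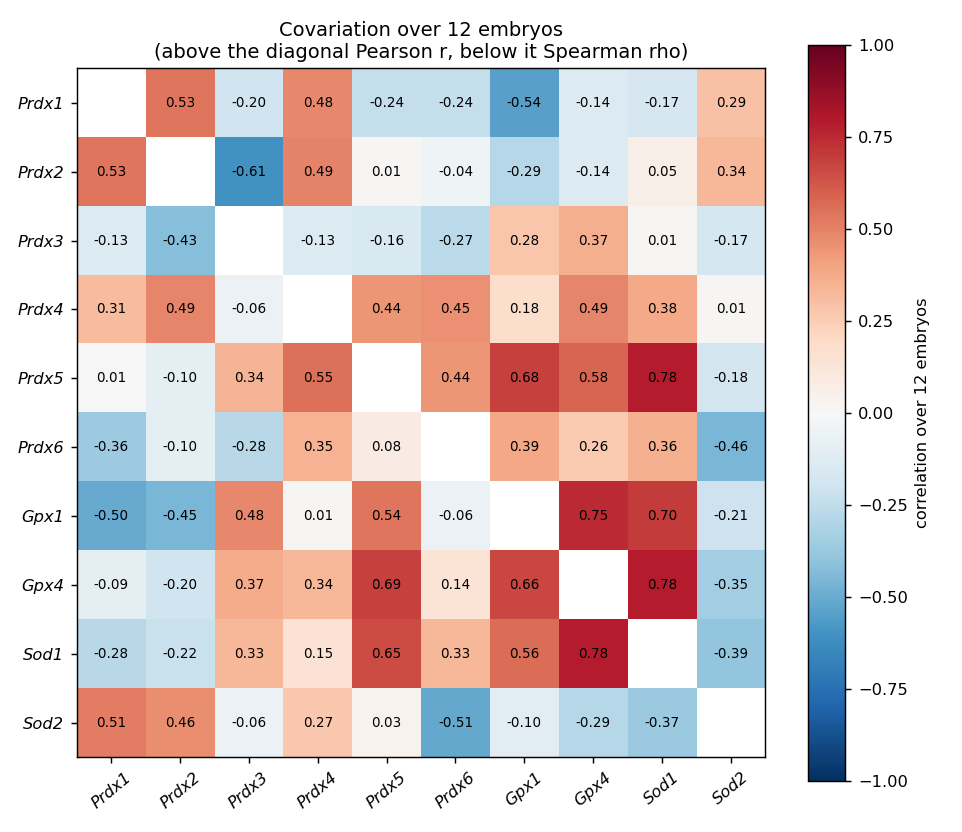
Pearson's r (above the diagonal) and Spearman's rho (below it) of log2 levels over 12 embryos for the 45 pairs of genes, from -1 (blue) to 1 (red). The pairs among Prdx5, Gpx1, Gpx4 and Sod1 have r between 0.58 and 0.78, and no pair passed after adjustment.

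Levels of the 10 genes were set against 9 lists of cell type markers, and 0 of 90 relations passed after adjustment, with 6 below an unadjusted p of 0.05 by Pearson and 5 by Spearman. Toward the visceral endoderm list, Prdx2 had r = -0.71 (permutation p = 0.0101, adjusted over the 90 relations 0.512) and rho = -0.65, and Prdx1 r = -0.67 (permutation p = 0.0170, adjusted 0.512) and rho = -0.59. Gpx1 had r = 0.64 (permutation p = 0.0208, adjusted 0.512) and rho = 0.69 with the same list. Since male replicates 2, 5 and 6 stood apart at its low end, r was also taken within the other 9 embryos, where it was -0.48 for Prdx2, -0.47 for Prdx1 and 0.38 for Gpx1. Prdx3 had r = 0.61 with the list over all 12 embryos (permutation p = 0.0379, adjusted 0.682) and 0.07 within those 9. After sex means were subtracted, over all 12, r was -0.51 for Prdx2, -0.49 for Prdx1, 0.47 for Gpx1 and 0.65 for Prdx3. Litter means were also subtracted, over the 8 embryos of litters with more than 1. There r was -0.85 for Prdx2, -0.75 for Prdx1, 0.75 for Gpx1 and 0.85 for Prdx3. Those 8 embryos include male replicates 2, 5 and 6, and each of their litters holds 1 female and 1 or 2 males. The litter-centred values therefore keep the sex contrast and the males at the low end of the list, and rest on few embryos. Prdx4 had r = -0.65 with the epiblast list (permutation p = 0.0228, adjusted 0.512), and -0.25 without male replicates 6 and 7. Prdx3 had r = 0.57 (permutation p adjusted 0.745) and rho = 0.84 with the leukocyte list (permutation p of rho = 0.00126, adjusted 0.113). Its r was 0.65 after sex means were subtracted. With litter means subtracted, over the 8 embryos of litters with more than 1, it was 0.05. The 8 of 10 leukocyte genes tested were low, summing to between 459 and 1885 normalized counts in females and between 674 and 1694 in males.

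**Figure D5:**
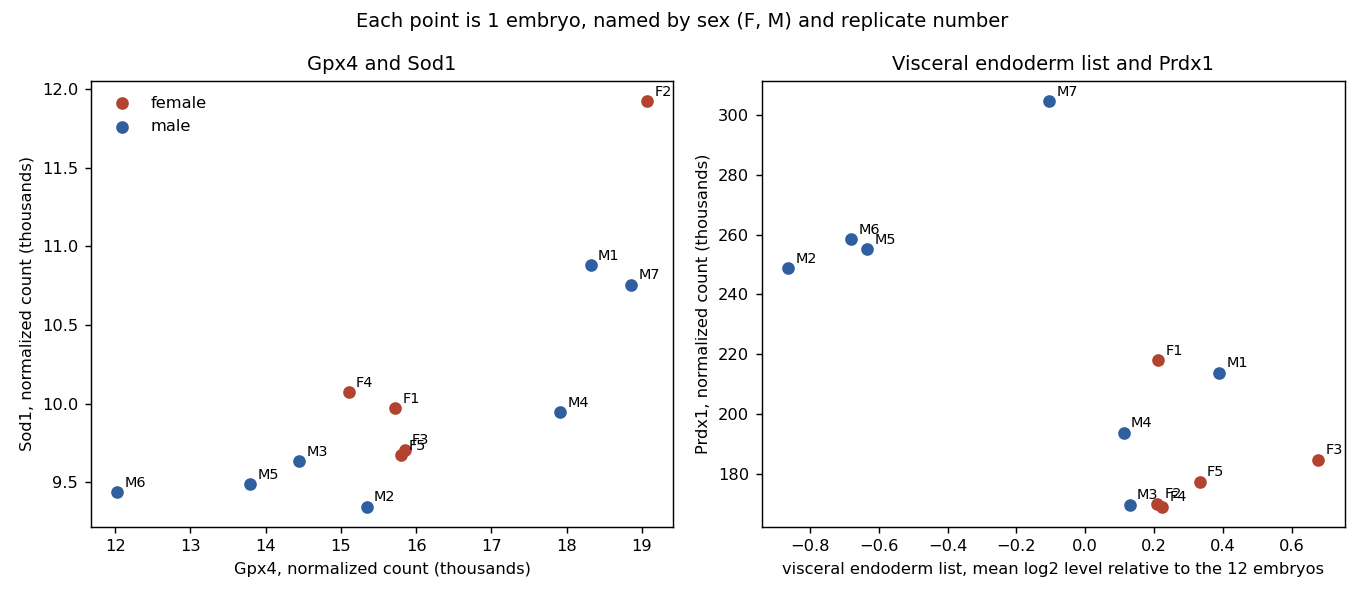
Left, Sod1 against Gpx4, both as normalized counts in units of 1e3; right, Prdx1 in the same unit against the mean log2 level of the visceral endoderm list. Each point is 1 embryo: F2, M1, M4 and M7 hold the most Gpx4, and M2, M5 and M6 lie lowest on the visceral endoderm list with Prdx1 at 248851 to 258575.

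Adult red blood cells hold much Prdx2 and Gpx1, so their markers were read beside these genes. The 5 of 7 such markers that were tested summed to between 414 and 7620 normalized counts in females and between 1125 and 7186 in males. Prdx2 had r = 0.01 and Gpx1 r = 0.16 with that list, but each value rests on 1 embryo. For Prdx2 r was -0.35 without female replicate 3, for Gpx1 it was -0.32 without male replicate 6, and without both embryos they were -0.36 and -0.44. The trophoblast giant cell list, with 7 of 9 genes tested and Prl3b1 at 0 in every embryo, summed to between 1945 and 25154 in females and between 9176 and 73284 in males, led by the placental lactogen Prl3d1. With it the 10 genes had r from -0.50 for Sod1 and -0.46 for Gpx1 to 0.42 for Prdx2 and 0.43 for Sod2, and Prdx1 had 0.40. After sex means were subtracted, r was -0.46 for Sod1, -0.20 for Gpx1, -0.01 for Prdx2, 0.21 for Sod2 and 0.05 for Prdx1. Of 20 relations with the estimated depth and the mitochondrial share of a library, 0 passed after adjustment; the largest were with the mitochondrial share, r = 0.68 for Prdx4 (permutation p = 0.0137, adjusted 0.157) and r = 0.68 for Gpx4 (permutation p = 0.0157, adjusted 0.157).

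The genes most like each member over the 12 embryos, by Pearson's r after sex means were subtracted among 12536 other genes with a mean of at least 100, were mostly not members. For Prdx1 they were Ssb and Rpl5 (r = 0.98 and 0.96), for Prdx2 Pabpn1 and Agtpbp1 (0.95 and 0.94), and for Prdx6 Hmgn2 and Brms1 (0.93 and 0.92). For Gpx1 they were the ribosomal protein gene Rps10 and Phb2 (0.95 and 0.94), for Gpx4 Mrpl54 and Atp5g3 (0.94 and 0.94), and for Sod1 Psmb3 and Eif3f (0.95 and 0.93). For Prdx3 they were Grtp1 and Plekha6 (0.90 and 0.89), for Prdx4 Egln3 and Fam89b (0.96 and 0.92), for Prdx5 Oaz1 and C1galt1c1 (0.88 and 0.88), and for Sod2 Pcgf2 and Tulp3 (0.92 and 0.87). The member ranked nearest to another was Sod1, at place 52 for Prdx5 (r = 0.77). The named genes are the highest of 12536 correlations over only 12 embryos, and high values can arise from that choice alone. None of these relations was tested.

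The wider redox pathway was read from 8 lists, and none of their 79 genes tested passed. Of these, 11 had an unadjusted p below 0.05 by limma (13.9%, against 10.8% of all genes). In females 9 of them were higher and 2 lower, while over all genes 5.13% were higher and 5.64% lower at that p. Whether this split differs from that of all genes was not tested. In the thioredoxin list 0 of 16 passed (median log2 fold change 0.06). Txn1, the thioredoxin that recharges Prdx1 and Prdx2, was at 17024, 16371, 17245.5, 16781 and 16128 normalized counts in female embryos, against 17266, 19336 and 21145 in male embryos (lowest, median and highest). Every female lay below every male, by a narrow margin, and 0.772% of all genes tested likewise showed no overlap between the sexes. The log2 difference of Txn1 was -0.19 with an SE of 0.06 (limma adjusted p = 0.308). Its reductase Txnrd1 averaged 24438 ± 1890.1 in the 5 females and 22930.1 ± 1063 in the 7 males (SD), and Srxn1, which repairs overoxidized peroxiredoxins, 712 ± 121 in the 5 females and 676 ± 146 in the 7 males (SD). The glutaredoxins Glrx3 and Glrx5 had log2 fold changes of 0.08 and 0.12.

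Among 8 genes of NADPH supply 0 passed (median 0.00). Nadk, the kinase that makes NADP from NAD, was at 23192, 24327.5, 23365, 23299 and 24788 normalized counts in female embryos, against 19958, 21230 and 21728 in male embryos. All females lay above all males, a lack of overlap shown by 0.772% of all genes tested. The log2 difference of Nadk was 0.18 with an SE of 0.04 (limma adjusted p = 0.176). Nnt averaged 6771 ± 584 in the 5 females and 6525 ± 648 in the 7 males (SD), and Pgd, of the pentose phosphate pathway, had a log2 fold change of 0.06. Idh1, which makes cytosolic NADPH and was named after its values were seen, averaged 5539 ± 463 in the 5 females and 6794 ± 604 in the 7 males (SD), which is -0.29 on the log2 scale with an SE of 0.08 (limma adjusted p = 0.228).

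Of 10 glutathione genes 0 passed (median 0.13), and of 6 selenoprotein synthesis genes 0 passed (median 0.02). Glutathione reductase, Gsr, averaged 17042 ± 969 in the 5 females and 15654 ± 849.8 in the 7 males (SD), which is 0.12 on the log2 scale with an SE of 0.05 (limma adjusted p = 0.417). Slc3a2, a subunit of the cystine transporter, had a log2 fold change of 0.19 (SE 0.08, adjusted p = 0.398 by limma). Sephs2, which makes the selenium donor for proteins such as Gpx1 and Gpx4, averaged 35397 ± 2587 in the 5 females and 32321 ± 3934 in the 7 males (SD), and Trnau1ap had a log2 fold change of 0.03. In the list of NRF2 and its targets 0 of 15 passed (median 0.00). Nfe2l2, which encodes NRF2, averaged 7601 ± 535 in the 5 females and 6742 ± 700.4 in the 7 males (SD), and Keap1, its inhibitor, 3114 ± 373 in the 5 females and 3272.5 ± 685 in the 7 males (SD). Nfe2l1 had a log2 fold change of -0.04.

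Other enzymes against peroxide and superoxide did not pass either (0 of 11, median -0.10). Leaving out 1 embryo moved that median between -0.198 without male replicate 3 and 0.003 without male replicate 7, and it was -0.02 with a pseudocount of 10. Catalase, Cat, averaged 7144 ± 949 in the 5 females and 8208 ± 1157 in the 7 males (SD), a log2 fold change of -0.20 (SE 0.11). The secreted Gpx3 averaged 33277 ± 4443 in the 5 females and 27250.3 ± 6261 in the 7 males (SD), a log2 fold change of 0.31 (SE 0.15). Ccs, the copper chaperone of Sod1, averaged 3286 ± 172 in the 5 females and 3336 ± 332 in the 7 males (SD). Of 11 genes of iron and lipid peroxidation 0 passed (median 0.09), with log2 fold changes of 0.09 for Ftl1 and 0.05 for Fth1, the ferritin chains. Of 7 oxidant sources 0 passed (median -0.03), and the sign of that median turned with the setting, to 0.24 without female replicate 2, 0.21 with litter as a fixed block and 0.14 with a pseudocount of 10. Among them P4hb, the protein disulfide isomerase of the endoplasmic reticulum, had a log2 fold change of 0.14 and Cyba, an NADPH oxidase subunit, 0.40. The medians of the NADPH, selenoprotein and NRF2 lists also changed sign when single embryos were left out, within -0.0433 and 0.064.

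The genes lie on GRCm38 at 4 from 116685544 to 116700822 (Prdx1), 8 from 84969587 to 84974834 (Prdx2), 19 from 60864051 to 60874556 (Prdx3), X from 155323918 to 155340754 (Prdx4), 19 from 6906697 to 6910106 (Prdx5), 1 from 161240112 to 161251219 (Prdx6), 9 from 108338903 to 108340343 (Gpx1), 10 from 80047166 to 80056439 (Gpx4), 16 from 90220754 to 90226329 (Sod1) and 17 from 13006846 to 13040063 (Sod2). Sod1 shares 650 bases with Scaf4, Prdx5 shares 409 with Trmt112, and Prdx2 shares 351 with Junb and 181 with Rnaseh2a, each on the other strand. Whether the counting used strand is unknown, so reads from such overlaps cannot be assigned to 1 of the genes. Among near-identical copies, Gpx4-ps2 was at 3.80% of the mean of Gpx4 and Prdx2-ps1 at 0.087% of that of Prdx2, while Prdx1-ps, Prdx2-ps2, Prdx6b and Prdx6-ps2 were at 0 in every embryo. How reads were split between Gpx4 and Gpx4-ps2 is uncertain.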

How the data were processed

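Libraries from 5 female and 7 male E7.0 embryos were made with SMARTer and Nextera XT kits and read from both ends, per the labels' protocols. Named in the submitters' processing notes, with no settings, are the mm10 build, DESeq2 1.34.0, Salmon 1.5.2, STAR 2.7.7a and cutadapt 4.1. The deposited table of 55291 genes holds log2-scale, variance-stabilized values per embryo, a mean signal per gene (normalized counts), and the authors' log2 fold change, p-value and adjusted p-value.

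The transformation was inverted to normalized counts, whose mean matched the deposited mean for 98.95% of genes (relative tolerance 1e-06) and for all 10 members. Raw counts are not used here. P-values measure the spread between embryos, some of which share a litter. Sex was tested on log2(normalized count + 1) by limma (version 3.58.1, R 4.3.3, trend over mean level) for the 16455 genes with at least 10 in at least 5 embryos, with Benjamini-Hochberg adjustment. Folds are on that scale. Correlations had 100000 permutations, two-sided. The fit and the correlations were tested on simulated data.

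Members and lists were chosen with earlier results of these data known. Named genes are the members, per list those past the threshold or else the 2 of highest level, and genes fixed for their role. Alternatives changed the pseudocount, filter, scale, scaling, block, trend and embryos. Same-numbered females and males came from different litters and deviated with correlations from -0.068 to 0.009, so the numbers do not pair them. Depth was estimated from the most common low value as 1 fragment.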

Additional observations from a re-analysis of the deposited data

Results flagged for a closer look

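Within a sex, 1 embryo stood far from the rest in 7 of the 72 sets of values checked, of which 3 were levels of the 10 genes. If values are normally spread, chance alone marks about 1 in 20 such sets. Sets marked by the same embryo, such as those of female replicate 2, are not independent, and an excess over chance was not tested. In females, replicate 2 had Gpx4 at 19067 normalized counts, with the next at 15849.5, and Sod1 at 11921, with the next at 10072. Its log2 ratio of Gpx4 to Gpx1 was -2.14, with the next female at -2.29. In males, replicate 7 had Sod2 at 6175, with the next at 7179. Srxn1 was at 925 in female replicate 3, with the next at 682, and Nfe2l2 was at 6693 in female replicate 1, with the next at 7660.1. Pgd was at 24889 in male replicate 1, with the next at 22051.5.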

How the results depend on the processing

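None of the 10 genes passed under any of the 23 other settings, with a lowest adjusted p of 0.169 (Prdx1 without male replicate 3). The count over all genes was 7, between 5 and 9 when 1 embryo was left out, and 4 with litter as a fixed block. No call of a member or list was changed by the replicate block, under which 4 genes passed over all genes, and the numbers do not pair the embryos. With litter as a fixed block the log2 fold change was -0.0008 for Prdx6 and -0.0024 for Sod1, close to 0; the cause was not tested. Leaving out 1 embryo gave ranges of -0.0081 to 0.0693 for Sod1, -0.0064 to 0.1018 for Gpx4 and -0.008 to 0.0925 for Prdx3, each crossing 0. With litter as a fixed block Prdx3 rose to 0.1632, against 0.0423 without it (adjusted p = 0.442 by limma with the block). Prdx1, Prdx2, Prdx4, Prdx5, Gpx1 and Sod2 kept their sign under the 23 settings, but Prdx5 was 0.005 without female replicate 2, against 0.071 with all embryos, and Sod2 was -0.0231 with litter as a fixed block, against -0.1164 without it. For the same genes, moves of over 1.5 times also gave -0.2244 for Prdx1 with the replicate block and 0.0533 for Gpx1 without female replicate 2. With litter as a fixed block they gave -0.1607 for Prdx2, -0.167 for Prdx4 and 0.0185 for Prdx5. Without female replicate 3 they gave -0.057 for Prdx4 and 0.1117 for Prdx5, and without male replicate 7 -0.0454 for Prdx4. Without 1 embryo, between 0 and 1 of the 45 pairs passed (Gpx1 and Gpx4, r = 0.89, without male replicate 7), as did between 0 and 1 of the 90 marker relations (Prdx3 and the leukocyte list, r = 0.84, without female replicate 3). Without female replicate 2 and male replicate 6, a setting added after the data were seen, 1 pair passed (Prdx1 and Prdx4, r = 0.87). With the deposited log2-scale values 1 marker relation passed (Prdx1 and nascent mesoderm, r = -0.84). On the scale used for the other results the same relation had r = -0.40 (permutation p = 0.195, adjusted 0.848), so its size depends on the scale. Of the 9 neighbours in the order of levels, 6 kept their order with merged exons, 7 with coding length and 8 by medians over embryos. The number of embryos and their spread limit the precision: the interval of Gpx4, as a change in females, ran from -11.1% to 21.7%.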
